A study of Homo sapiens with 6 samples.

Results

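NRF2 (gene NFE2L2), its inhibitor KEAP1 and 8 genes known as classical NRF2 targets were followed in KM12, an established cell line grown from a colorectal cancer. They are 10 of the 27134 genes measured, were taken by gene symbol, and all 10 passed the filter on low values (a mean of at least 1 normalised count over the 6 libraries). CDO1 cells overexpressed cysteine dioxygenase, the enzyme that turns cysteine into cysteine sulfinate, and mock cells were the control, with 3 RNA libraries in each group and passages 10 to 15 in both. The labels used here give no vector, no number of clones and no source culture for each library, so a p-value below weighs a difference against library spread that could be technical.

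NRF2 is a transcription factor that turns on genes for detoxification, redox balance and iron handling by binding antioxidant response elements as a dimer with a small MAF protein. In unstressed cells KEAP1 hands NRF2 to a CUL3 ubiquitin ligase for destruction, and electrophiles or oxidants that modify KEAP1 cysteines let NRF2 build up. The pathway is therefore controlled largely through the NRF2 protein, which these RNA data do not measure.

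In the CDO1 cells the classical targets moved in opposite directions while NFE2L2 and KEAP1 RNA showed no change past the threshold. The carbonyl reductase gene CBR1 rose 1.71-fold, TRIM16 rose 1.33-fold and the heme oxygenase gene HMOX1 rose 1.24-fold. PIR fell, at 1.56-fold lower, and OSGIN1 fell, at 1.43-fold lower. NQO1, a widely used marker of NRF2 activity, stood at 0.911 times the mock mean, and its adjusted p of 0.0500043 in limma just missed the threshold of 0.05. CBR3 was close to undetected, and EPHX1 did not pass. In RNA from a whole culture, fewer cells that express a gene and less of its RNA per cell cannot be told apart.

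Thus 3 of the 10 genes rose and 2 fell, against 11.3% of the 21775 genes tested that rose and 12.7% that fell (limma, adjusted p under 0.05). Over both directions the share was 24.0% of all genes tested. Among genes that averaged 100 normalised counts or more, which include 9 of the 10, it was 36.3%, and 5 of these 9 passed. The median log2 fold change of the 10 genes was -0.03, beside -0.003 for all genes tested and 0.02 for those that averaged 100 or more.

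Reads assigned to genes ranged from 17516640 to 22198173 per library. CDO1 stood at 2484, 2336 and 2333 normalised counts in the CDO1 libraries, against 68.1, 0 and 0 in mock replicates 1, 2 and 3. The 76 reads of CDO1 in mock replicate 1 set that library apart from the other mock libraries, and the authors' deposited table lists CDO1 itself with a log2 fold change of 0.09 (adjusted p = 0.416). Without mock replicate 1 the same 3 genes rose and the same 2 fell, with adjusted p of 0.000124 (CBR1), 0.00202 (TRIM16), 0.00663 (HMOX1), 0.00017 (PIR) and 0.00848 (OSGIN1) in limma. All 7 epithelial markers of the colon line were present, with a summed level of 189900 to 203900 normalised counts in the CDO1 libraries and 142200 to 151000 in the mock libraries. Most of that sum was KRT8, at 118500 to 130900 in the CDO1 libraries and 83710 to 89900 in the mock libraries. KRT19 overlapped, at 26040 to 28710 in the CDO1 libraries and 27040 to 30940 in the mock libraries, and VIL1 stood at 431.9 to 471.9 in the CDO1 libraries and 132.6 to 157.7 in the mock libraries. The 2 fibroblast markers of 4 that were analysed summed to 130 to 151 in the CDO1 libraries, against 204 to 293 in the mock libraries. COL1A1 was apart between the groups. PDGFRB overlapped, at 39.44, 40.51 and 38.57 in the CDO1 libraries and 59.15, 27.31 and 19.23 in the mock libraries. The 3 endothelial markers summed to 45.4 to 71.2 in the CDO1 libraries, against 25.4 to 82.5 in the mock libraries. Among them KDR had 47.5 in mock replicate 1 and 0.9753 and 0 in mock replicates 2 and 3. The 3 immune markers were not analysed here. The part of these markers in the results was not tested.

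**Figure D1:**
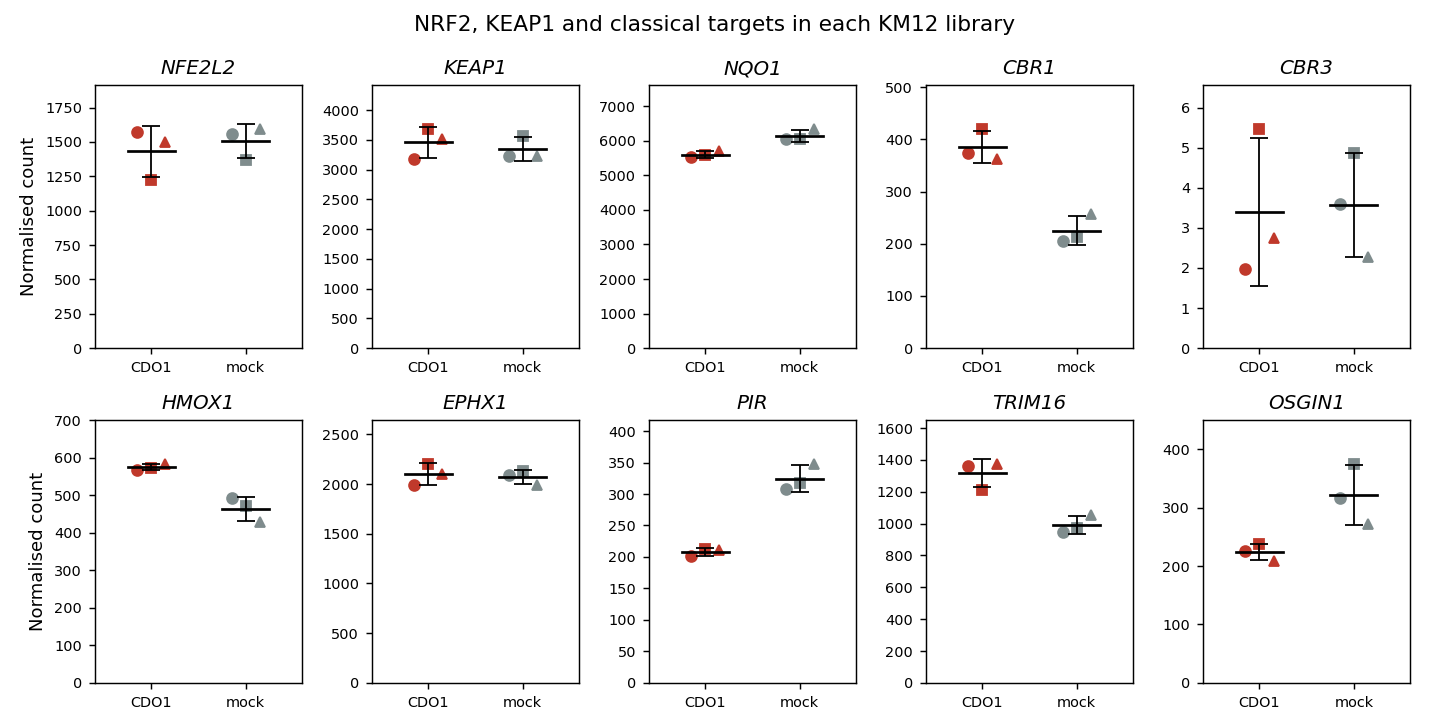
Normalised count of each gene (vertical axes from 0) in each library, with CDO1 libraries in red and mock libraries in grey, circles, squares and triangles for replicates 1, 2 and 3, lines at the mean and bars of 1 SD. The groups are apart for CBR1 (361.9 to 420.4 in the CDO1 libraries against 206.1 to 256.8 in the mock libraries), HMOX1, TRIM16, PIR, OSGIN1 and NQO1, and overlap for NFE2L2, KEAP1, EPHX1 and CBR3.

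The gene for NRF2 itself, NFE2L2 (ENSG00000116044, GRCh38 chromosome 2, 177227595 to 177392697, minus strand), had 1576, 1220 and 1500 normalised counts in CDO1 replicates 1, 2 and 3, against 1561, 1368 and 1596 in mock replicates 1, 2 and 3. The groups overlapped, and replicate 2 was the lowest library of each group. The mean was 1432 ± 188 in the CDO1 libraries and 1509 ± 123 in the mock libraries (SD, n = 3 each). The log2 fold change was -0.08 ± 0.08 (SE; adjusted p = 0.532 in limma). Its 95% interval corresponds to a ratio of 0.841 to 1.06. Its transcripts share 13.2% of their 50-base stretches with AC019080.1, which overlaps them and had 6.9 to 11.94 normalised counts in the CDO1 libraries, against 14.63 to 26.89 in the mock libraries. The start of the gene, at its highest coordinate, also overlaps AGPS, over 0.0807% of those stretches. AGPS lies on the other strand and rose (log2 fold change 0.32, adjusted p = 0.000171 in limma).

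KEAP1 (ENSG00000079999, chromosome 19, 10486120 to 10503741, minus strand), the adaptor that holds NRF2 at its ligase, had 3177, 3688 and 3517 normalised counts in the CDO1 libraries, against 3225, 3573 and 3235 in the mock libraries. The groups overlapped, and replicate 2 was the highest library of each. Its log2 fold change was 0.05 ± 0.06 (SE; adjusted p = 0.634 in limma), with an interval of 0.947 to 1.13 as a ratio. The longest KEAP1 transcript is rich in G and C (60.3%). With each library's trend with GC content removed the log2 fold change of KEAP1 was 0.15 (adjusted p = 0.0124 in limma), past the threshold. That refit called more of all genes, 15.6% of 21564 as higher and 14.1% as lower. Across the genes that averaged 100 or more, the deviation of a library from the mean over all 6 had a Spearman's rho with GC content of -0.336 to 0.0028 in the CDO1 libraries and -0.237 to 0.523 in the mock libraries. The highest rho of each group was that of replicate 2. The part of this trend in the replicate 2 values of NFE2L2 and KEAP1 was not tested. The values of the other 9 genes under the same refit are in the plot of fold changes.

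Promoter windows were searched for the core of the antioxidant response element, TGACNNNGC, on both strands. The windows are those of RefSeq on GRCh38.p14 and run from 250 bases before to 50 bases after an annotated start. Of the 10 genes 8 matched by symbol, NFE2L2 and KEAP1 with 2 windows each, EPHX1 with 3 and the others with 1, and HMOX1 and CBR3 were not searched. The core was present in 4 of their 12 windows, 1 each of KEAP1, CBR1, PIR and EPHX1, and in 13.3% of all 35116 windows. Those 4 genes comprise CBR1, which rose, PIR, which fell, and KEAP1 and EPHX1, which did not pass. No core was found in the windows of NFE2L2, NQO1, OSGIN1 and TRIM16, which says only that these letters are missing there. A match is a description and no evidence of binding. The matches follow with 6 flanking bases on each side, each read along the strand of the motif, with the core in capitals, because they let the genes that moved in opposite directions be compared letter by letter.
CBR1, chr21:36069859-36069879, minus strand: ctagccTGACTTTGCagaacc
PIR, chrX:15493293-15493313, plus strand: tcaccgTGACTCAGCgcttcg
KEAP1, chr19:10502811-10502831, minus strand: ttattgTGACACGGCgggcgc
KEAP1, chr19:10502788-10502808, plus strand: tcaccaTGACTAAGCagagcc
EPHX1, chr1:225825270-225825290, plus strand: attggcTGACTTGGCaggact

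The PIR match overlaps TGANTCA, the AP-1 motif, and spans bases 27 to 35 of the transcript. The CBR1 match lies 159 to 151 bases before the RefSeq start of CBR1. Those of KEAP1 lie 54 to 46 and 31 to 23 bases before 1 of its 2 starts. GENCODE release 29 annotates CBR1 from 36069941, upstream of its RefSeq start. The CBR1 stretch printed below therefore stops short of the RefSeq start. The AP-1 motif was present in 7.71% of all windows and, among the 8 genes, also in the OSGIN1 window. The CBR1 window is given up to the first base annotated to the gene in GENCODE release 29, because CBR1 had the largest rise of the 10 genes, with the core in capitals as it reads on the gene's own strand.
CBR1 promoter, chr21:36069774-36069940, plus strand: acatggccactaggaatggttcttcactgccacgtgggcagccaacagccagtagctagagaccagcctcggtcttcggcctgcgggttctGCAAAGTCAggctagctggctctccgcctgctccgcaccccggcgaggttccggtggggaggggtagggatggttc

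The enzymes that reduce quinones and carbonyls did not move as a group. NQO1 (ENSG00000181019, chromosome 16, 69706996 to 69726951, minus strand) encodes a flavoprotein that reduces quinones in a single 2-electron step. It had 5526, 5580 and 5703 normalised counts in the CDO1 libraries, against 6038, 6064 and 6347 in the mock libraries. All CDO1 libraries lay below all mock libraries, and the log2 fold change was -0.13 ± 0.05 (SE). Besides limma's adjusted p of 0.0500043, edgeR's quasi-likelihood test on recovered reads gave an adjusted p of 0.0353, DESeq2 gave 0.0264, and the authors' deposited table lists a log2 fold change of -0.13 with an adjusted p of 0.0271. Of the genes with a p-value there, 16.0% have an adjusted p under 0.05. With the GC trend removed limma's adjusted p was 0.000731, and over leaving out each library in turn it ranged from 0.0383 to 0.167. Over all 20 alternatives the log2 fold change of NQO1 lay between -0.17 and -0.11. An antisense gene, AC092115.2, shares 14.4% of the 50-base stretches of NQO1 and was not analysed here.

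CBR1 (ENSG00000159228, chromosome 21, 36069941 to 36073166, plus strand) encodes a carbonyl reductase that acts on prostaglandins, quinones and anthracycline drugs. Its normalised counts were 373.7, 420.4 and 361.9 in the CDO1 libraries, against 206.1, 212.6 and 256.8 in the mock libraries. The lowest CDO1 library lay above the highest mock library, with means of 385 ± 30.95 in the CDO1 libraries and 225 ± 27.6 in the mock libraries (SD, n = 3 each). The rise was 0.78 ± 0.10 on the log2 scale (SE; adjusted p = 4.88e-06 in limma), an interval of 1.49 to 1.98 as a ratio. AP000688.1, which shares 16.5% of its 50-base stretches, had at most 2.96 normalised counts in any library.

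CBR3 (ENSG00000159231, chromosome 21, 36134912 to 36146566, plus strand), the neighbouring paralog of CBR1, had 2, 5 and 3 reads in the CDO1 libraries, against 4, 5 and 2 reads in the mock libraries. At this depth a difference was not detectable, and the interval of 0.437 to 2.01 as a ratio spans lower and higher levels alike. An antisense gene, CBR3-AS1, overlaps its exons and had 16.5 to 18.7 normalised counts in the CDO1 libraries and 15.8 to 17.6 in the mock libraries. The sources used here do not say whether counting used the strand, so reads of CBR3 and CBR3-AS1 may not have been told apart. Of the distinct 50-base stretches of CBR3 transcripts in GENCODE release 29, 35.7% also occur in CBR3-AS1 on either strand. CBR1 and CBR3 share no stretch of that length.

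NQO2, HMOX2, OSGIN2, CBR4, 3 further epoxide hydrolase genes and TRIM16L are the closest relatives of the enzymes and regulators followed here. Of these 8, HMOX2 and TRIM16L rose, NQO2 and OSGIN2 fell, and 4 did not pass, beside 24.0% of all genes past the threshold and 36.3% of those that averaged 100 or more, as 7 of the 8 did. NQO2, a quinone reductase that uses another cofactor, stood at 669 ± 7.25 normalised counts in the CDO1 libraries and 770 ± 24.2 in the mock libraries (SD, n = 3 each; log2 fold change -0.20, adjusted p = 0.0237 in limma). CBR4, a mitochondrial carbonyl reductase subunit, had a log2 fold change of -0.14 (adjusted p = 0.194 in limma). The calls of NQO2 and OSGIN2 each ended in 4 of the 6 fits that left out a library. NQO2 reached an adjusted p of 0.0997 and OSGIN2 of 0.221 there. The libraries whose removal ended the NQO2 call were CDO1 replicates 1 and 3 and mock replicates 1 and 3, and for OSGIN2 they were CDO1 replicates 2 and 3 and mock replicates 1 and 3.

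HMOX1 (ENSG00000100292, chromosome 22, 35380361 to 35394214, plus strand) encodes the inducible heme oxygenase, which opens heme to biliverdin, carbon monoxide and free iron and is repressed by BACH1. It had 567, 572.6 and 584.1 normalised counts in the CDO1 libraries, against 491.1, 470.1 and 427.6 in the mock libraries. All CDO1 libraries lay above all mock libraries, and they were closer together (SD 8.73) than the mock libraries (SD 32.3). On the log2 scale the rise was 0.31 ± 0.07 (SE; adjusted p = 0.00326 in limma), an interval of 1.12 to 1.38 as a ratio.

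Genes that supply heme, break it down or keep its iron were taken as a list around HMOX1. Of 10, 4 rose, none fell and 6 did not pass, with a median log2 fold change of 0.19 against -0.003 for all genes tested and 0.02 for those that averaged 100 or more, as 8 of the 10 did. All 4 rises were among those 8 genes. Of all 10941 genes with such a mean, 36.3% passed the threshold, 2144 as higher and 1829 as lower. HMOX2 is also among the relatives above, and 7 of the 10, with the other 3 rises, are also in the wider list of targets below, so these calls are counted in both. HMOX2, the constitutive heme oxygenase, stood at 2216 ± 143 normalised counts in the CDO1 libraries and 1825 ± 74.9 in the mock libraries (SD, n = 3 each; adjusted p = 0.00134 in limma). BLVRA, which reduces biliverdin to bilirubin, rose 1.23-fold, and the heme carrier SLC48A1 rose 1.25-fold. The ferritin chain gene FTH1, which stores iron, rose 1.33-fold, with 10065, 8245 and 10216 normalised counts in the CDO1 libraries against 7411, 6533 and 7499 in the mock libraries. The light ferritin chain FTL had a log2 fold change of 0.04 (adjusted p = 0.644 in limma), and BLVRB of 0.04 (0.694). The iron exporter SLC40A1 and the porphyrin carrier ABCB6 had at most 17.5 and 9.75 normalised counts in any library and did not pass. Without CDO1 replicate 1 the call of SLC48A1 ended (adjusted p = 0.0625 in limma).

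EPHX1 (ENSG00000143819, chromosome 1, 225810092 to 225845563, plus strand) encodes microsomal epoxide hydrolase, which opens reactive epoxides to diols. It had 1993, 2206 and 2101 normalised counts in the CDO1 libraries, against 2091, 2129 and 1989 in the mock libraries. The groups overlapped, and the log2 fold change was 0.02 ± 0.06 (SE; adjusted p = 0.842 in limma), an interval of 0.935 to 1.1 as a ratio. Its annotated end overlaps that of TMEM63A on the other strand, which rose (log2 fold change 0.38, adjusted p = 8.02e-05 in limma), and no 50-base stretch of EPHX1 occurs in another gene. Its relatives EPHX2, EPHX3 and EPHX4 did not pass either, with log2 fold changes of 0.11, 0.62 and -0.08, and EPHX3 had at most 12.0 normalised counts in any library.

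PIR, TRIM16 and OSGIN1, whose products are regulators more than detoxifying enzymes, each differed between the groups. PIR (ENSG00000087842, chromosome X, 15384799 to 15493564, minus strand) encodes pirin, an iron-binding nuclear protein that acts with NF-kB. Its normalised counts were 201.2, 212.4 and 210.3 in the CDO1 libraries, against 308.3, 317 and 348.4 in the mock libraries. The CDO1 libraries lay far below the mock libraries relative to the spread within either group, with means of 208 ± 5.98 in the CDO1 libraries and 325 ± 21.1 in the mock libraries (SD, n = 3 each). On the log2 scale PIR fell by 0.64 ± 0.09 (SE; adjusted p = 1.82e-05 in limma).

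TRIM16 (ENSG00000221926, chromosome 17, 15627960 to 15684311, minus strand) encodes a ubiquitin ligase of the tripartite motif family. It had 1360, 1214 and 1377 normalised counts in the CDO1 libraries, against 944.6, 971.4 and 1054 in the mock libraries. The groups did not overlap, and the log2 fold change was 0.41 ± 0.07 (SE; adjusted p = 8.08e-05 in limma). TRIM16L, a partial copy of TRIM16, had 538.4, 498.1 and 552.9 normalised counts in the CDO1 libraries, against 406, 406.7 and 420.8 in the mock libraries (1.29-fold higher, adjusted p = 0.000902 in limma). Of the distinct 50-base stretches of TRIM16 transcripts 28.9% also occur in TRIM16L, so the 2 genes may exchange reads and their rises are not independent measurements. With other genes counted too, 46.6% of the TRIM16 stretches are shared. AC005324.3, on the same strand, shares 19.8% and had at most 3.39 normalised counts in any library.

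OSGIN1 (ENSG00000140961, chromosome 16, 83948282 to 83966332, plus strand) encodes a growth inhibitor induced by oxidative stress. It had 225.8, 237.6 and 209.4 normalised counts in the CDO1 libraries, against 316.4, 375.5 and 272.6 in the mock libraries. Every CDO1 library was lower than every mock library, and the mock libraries were spread over a wide range. Its log2 fold change was -0.51 ± 0.11 (SE; adjusted p = 0.00133 in limma), and -0.36 with the GC trend removed (adjusted p = 0.00141 in limma). By the longest transcript of each gene, OSGIN1 is the richest in GC of the 10 genes, at 63.4%. AC009119.2, on the same strand, shares 12.1% of the 50-base stretches of OSGIN1 and had at most 6.79 normalised counts in any library.

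In all, 6 of the 9 genes that averaged 100 normalised counts or more had groups that did not overlap, and so did 49.9% of all genes with such a mean.

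**Figure D2:**
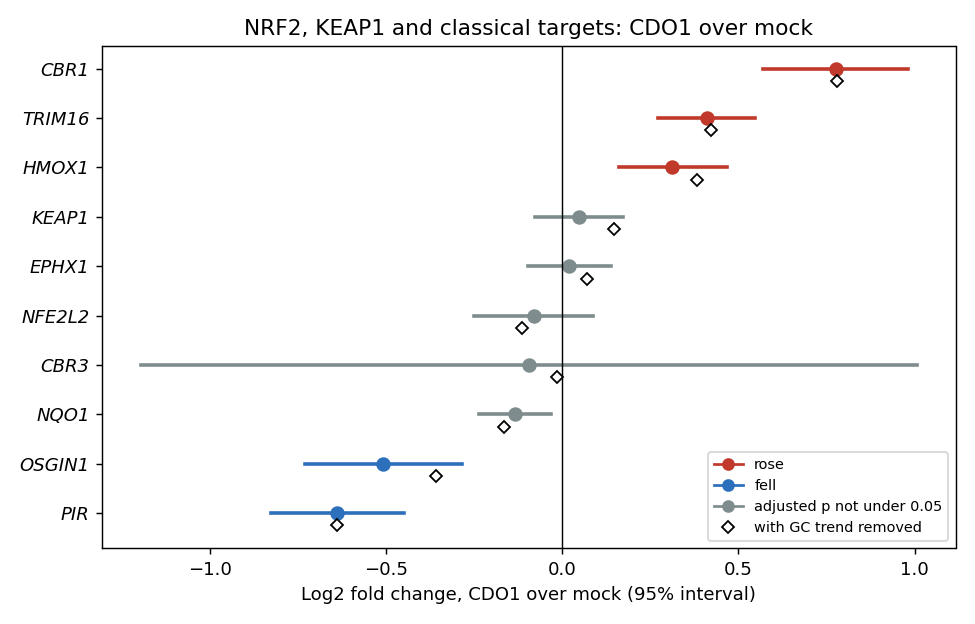
Log2 fold change of CDO1 over mock for each gene, with a bar for the 95% interval from limma, red for genes that rose, blue for genes that fell and grey for those not past the threshold. Open diamonds give the value with each library's GC trend removed. CBR1 lies highest at 0.78 and PIR lowest at -0.64, and removing the trend moved KEAP1 to 0.15 and OSGIN1 to -0.36.

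Per length, the 10 genes spanned a wide range of levels. In normalised counts per kb of exon, the CDO1 libraries had 1722 ± 27.9 for NQO1, 920 ± 69.2 for KEAP1, 837 ± 42.5 for EPHX1, 240 ± 31.4 for NFE2L2 and 239 ± 3.63 for HMOX1 (SD, n = 3). They had 233.5 ± 15.85 for TRIM16, 157 ± 12.6 for CBR1, 82.8 ± 2.38 for PIR, 64.8 ± 4.09 for OSGIN1 and 2.91 ± 1.57 for CBR3 (SD, n = 3). NFE2L2, HMOX1 and TRIM16 overlapped there, as did KEAP1 and EPHX1.

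On the same per kb scale the mock libraries had 1890 ± 52.5 for NQO1, 889 ± 52.7 for KEAP1, 825 ± 28.9 for EPHX1, 252 ± 20.5 for NFE2L2 and 192.5 ± 13.45 for HMOX1 (SD, n = 3). They had 175.6 ± 10.15 for TRIM16, 129 ± 8.41 for PIR, 92.9 ± 14.9 for OSGIN1, 91.9 ± 11.3 for CBR1 and 3.06 ± 1.12 for CBR3 (SD, n = 3). HMOX1 and TRIM16 overlapped there, as did OSGIN1 and CBR1, so CBR1 stood above PIR in the CDO1 libraries and below it in the mock libraries. By the mean over all 6 libraries NQO1 lay at the 97.4th percentile of the protein-coding genes tested and CBR3 at the 14.3rd.

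**Figure D3:**
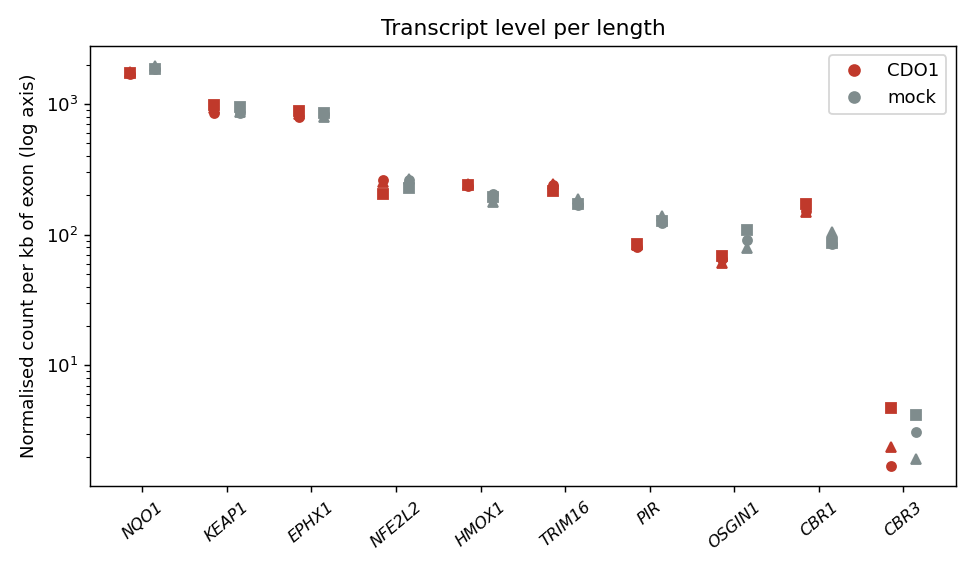
Normalised count per kb of exon (log axis) for the 10 genes in each library, with CDO1 libraries in red left of mock libraries in grey and shapes for replicates 1 to 3. NQO1 lies highest, at a mean of 1722 in the CDO1 libraries and 1890 in the mock libraries, and CBR3 lowest, at 2.91 and 3.06.

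Genes for proteins that turn NRF2 over, pair with it or compete with it for its sites were taken as a further list. Of 18 such genes, 1 rose, 3 fell and 14 did not pass, with a median log2 fold change of 0.02. Beside this, 24.0% of all genes tested passed, and 36.3% of those that averaged 100 or more, as 16 of the 18 did. BACH2, among the falls, is not one of those 16. The rise was that of BACH1, the heme-regulated repressor that occupies antioxidant response elements, at 686 ± 39.1 normalised counts in the CDO1 libraries and 577 ± 21.95 in the mock libraries (SD, n = 3 each; adjusted p = 0.0115 in limma). The small MAF partner gene MAFG fell, at 1103 ± 48.4 in the CDO1 libraries and 1273 ± 56.7 in the mock libraries (SD, n = 3 each; adjusted p = 0.0158), while its relatives MAFF and MAFK had log2 fold changes of 0.14 and -0.03 (adjusted p = 0.186 and 0.87). BTRC, a ubiquitin ligase subunit that removes NRF2 independently of KEAP1, fell, with a log2 fold change of -0.22 (adjusted p = 0.0253). BACH2, a scarce relative of BACH1, fell, at 12.7 ± 2.29 normalised counts in the CDO1 libraries and 28.0 ± 6.80 in the mock libraries (SD, n = 3 each; adjusted p = 0.01).

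Each of these 4 calls ended without at least 1 library, whereas the 5 calls among the classical targets held without each. Without CDO1 replicate 3 the adjusted p of BACH1 was 0.0869, and without mock replicate 3 that of BACH2 was 0.0611. MAFG lost its call without CDO1 replicate 1, CDO1 replicate 3 or mock replicate 1, reaching 0.0897, and BTRC without any library other than mock replicate 2, reaching 0.0949. The ligase scaffold CUL3 had a log2 fold change of 0.03 (adjusted p = 0.787 in limma), its RING partner RBX1 of 0.06 (0.53), and SQSTM1, the autophagy receptor that sequesters KEAP1, of 0.06 (0.521). With the GC trend removed SQSTM1, DPP3 and MAFF also rose, with log2 fold changes of 0.12, 0.21 and 0.26 and adjusted p of 0.0129, 0.00027 and 0.00255 in limma, in the refit that called 15.6% of all genes as higher.

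Of a wider list of genes known as NRF2 targets, 34 were analysed, of which 13 rose, 4 fell and 17 did not pass. That is 17 of 34 past the threshold, beside the shares of 24.0% and 36.3% given above, and AKR1C3 was not analysed here. The median log2 fold change was 0.09, against -0.003 for all genes tested. It was 0.02 for all genes that averaged 100 or more, as 27 of the 34 did. CYP4F11, among the falls, is not one of those 27. By direction, 11.3% of all genes tested rose and 12.7% fell. Of the 10941 genes that averaged 100 or more, 2144 rose and 1829 fell. The heme list shares 7 of these 34 genes, 3 of the rises among them. The enzymes of ME1, IDH1 and PGD make NADPH, and these 3 genes rose. ME1, malic enzyme, rose 1.54-fold and IDH1 1.47-fold. PGD rose 1.18-fold and TALDO1 1.19-fold, while TKT, which like PGD and TALDO1 belongs to the pentose phosphate pathway, had a log2 fold change of -0.08 (adjusted p = 0.309 in limma).

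In the thioredoxin branch of that list TXNRD1, thioredoxin reductase, rose 1.25-fold. TXN, thioredoxin, rose (log2 fold change 0.21, adjusted p = 0.00591 in limma). SRXN1 and PRDX1 did not pass, with log2 fold changes of -0.08 and -0.04. Without mock replicate 1 the adjusted p of TXN was 0.0614. The glutathione genes GCLC, GCLM, SLC7A11, GSR and GPX2 did not pass, with log2 fold changes of 0.15, 0.14, -0.02, 0.07 and 0.11, and GSTP1, a glutathione transferase, rose 1.18-fold. UGDH, which makes UDP-glucuronate, rose 1.32-fold, and ALDH3A1, an aldehyde dehydrogenase, rose 1.53-fold.

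The 4 falls in the wider list were those of ABCC2, CYP4F11, ABCC1 and MGST1. ABCC2, an exporter of conjugates, had 374.7, 365.7 and 323.3 normalised counts in the CDO1 libraries, against 835.2, 694.4 and 771.5 in the mock libraries. That difference was the largest of the list among genes past the threshold (2.16-fold lower, adjusted p = 2.86e-09 in limma). CYP4F11, a cytochrome P450, fell, at 66.9 ± 9.58 in the CDO1 libraries and 126 ± 9.87 in the mock libraries (SD, n = 3 each; adjusted p = 7.67e-05). ABCC1 and MGST1 fell, with log2 fold changes of -0.17 and -0.22 (adjusted p = 0.0258 and 0.0282), and each lost its call in 4 of the 6 fits without a library, with an adjusted p of up to 0.115 and 0.125. Those libraries were CDO1 replicates 1 and 3 and mock replicate 1 for both, with mock replicate 2 for ABCC1 and mock replicate 3 for MGST1. AKR1B10, AKR1C1 and AKR1C2, strongly NRF2-dependent in many human lines, had at most 10.7 normalised counts in any library here and did not pass.

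**Figure D4:**
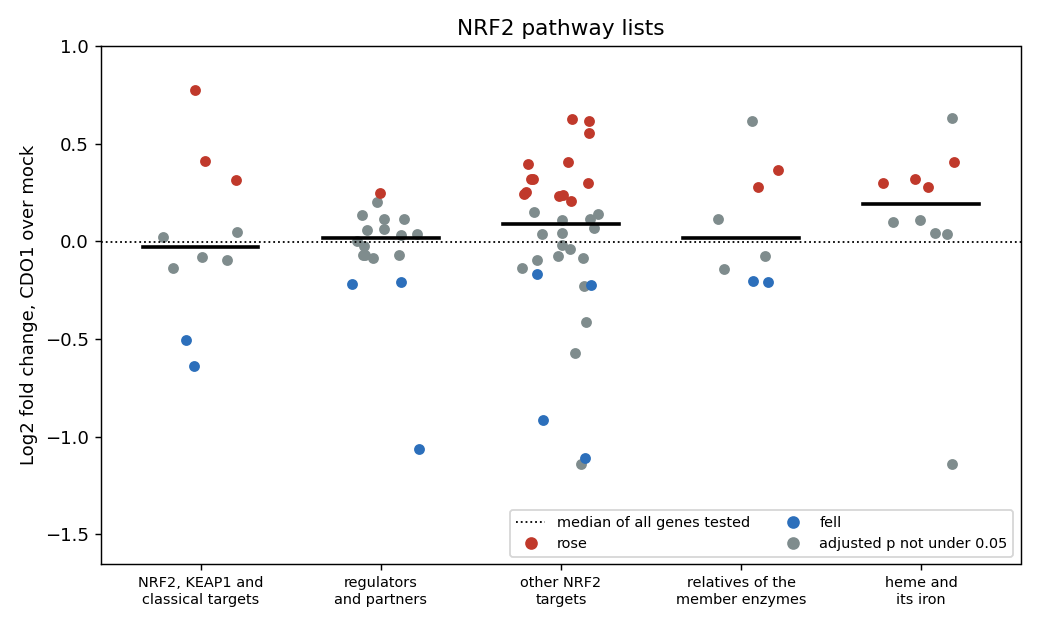
Log2 fold change of CDO1 over mock for the genes of each list, with red for genes that rose, blue for genes that fell, grey for those not past the threshold, black bars at the medians and a dotted line at the median of all genes tested. The medians are -0.03 for NRF2, KEAP1 and the classical targets, 0.02 for regulators and partners, 0.09 for other NRF2 targets, 0.02 for relatives of the enzymes and 0.19 for the heme list, which shares 7 genes with the other targets and 1 with the relatives.

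Genes whose pattern over the 6 libraries was most like that of NFE2L2, among 10549 protein-coding genes with a mean of at least 100, were STT3B (Pearson's r of 0.998 on the log2 scale), MMADHC (0.994) and ST7 (0.993). STT3B, a catalytic subunit of oligosaccharyltransferase, had 6343, 5622 and 6219 normalised counts in the CDO1 libraries, against 6307, 5902 and 6376 in the mock libraries, and like NFE2L2 was lowest in replicate 2 of each group. For NQO1 they were INTS2 (0.998), TNFRSF1A (0.997) and SIAE (0.995). TNFRSF1A, a receptor for tumour necrosis factor, had 1124, 1137 and 1178 normalised counts in the CDO1 libraries, against 1242, 1260 and 1321 in the mock libraries. These values rest on 6 libraries in 2 groups and share library preparation, depth and each library's trend with GC content, so they describe likeness in these libraries only.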

How the data were processed

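STAR 2.5.1b, DESeq2 1.10.1 and the build GRCh38 are named in the submitters' processing notes, with no role stated. The sources used here name neither the read counter nor the annotation release. The deposited signal values are gene counts divided by a size factor per library, and whole reads came back for 100% of values, within 0.001 of a read. The log2 fold change, p-value and adjusted p-value columns are the authors' deposited comparison, per the file headers.

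A pseudocount of 1 was added to each normalised count, log2 was taken, and limma 3.58.1 with a trend compared the groups over the 21775 genes that averaged 1 or more, adjusting by Benjamini-Hochberg. This understates the change of low genes, so folds in the text come from group means of normalised counts instead. edgeR 4.0.16 and DESeq2 1.42.0 on recovered reads, other filters, pseudocounts and scalings, a replicate block, and each library left out were alternatives, run with R 4.3.3. The limma fit without a block and the edgeR fit were tested on simulated counts that held no GC trend and no replicate effect. DESeq2 and the other alternatives were not tested in that way.

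Coordinates, merged exon length and GC content came from GENCODE release 29, with GC content taken from the longest transcript of each gene. That release holds 26742 of the 27134 IDs and may differ from the authors' annotation. Symbols came from a name table that holds 26577. The genes followed, the lists around them and the tests were chosen with earlier results of these data known. All 10 genes are named, and of the other lists those past the threshold and further members with their values, except a gene that is not reported here. The 3 genes most like NFE2L2 and NQO1 were taken by Pearson's r. The sources used here name no molecular identifiers, so a count of reads may not be a count of molecules. The SE and p-values from limma rest on the spread between libraries. Every column of values was mapped to a sample.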

Additional observations from a re-analysis of the deposited data

How the results depend on the processing

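Over the 20 alternatives CBR1, PIR and OSGIN1 kept their direction and their call, and HMOX1 and TRIM16 did so in 19, the exception being a minimum absolute log2 fold change of 0.5. NQO1 kept its direction in all and passed in 11. KEAP1 passed only with the GC trend removed, with and without a replicate block (0.15). NFE2L2 and EPHX1 passed in none, nor did CBR3 in the 17 that gave it an adjusted p. Their signs turned without a library (log2 fold changes of -0.154 to 0.03 for NFE2L2, -0.412 to 0.149 for CBR3 and -0.016 to 0.058 for EPHX1), above 0 without CDO1 replicate 2 for NFE2L2 and without CDO1 replicate 1 or mock replicate 2 for CBR3. EPHX1 lay below 0 without CDO1 replicate 2 or mock replicate 3, and with equal library totals (-0.006). The cause was not tested.

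An adjusted p under 0.01 left 3452 genes (1543 higher), no rise (0) and no fall (0) among regulators, and 2 falls among other targets. A log2 fold change of at least 0.5 left 2271 genes (640 higher, 1631 lower), 1 rise among the 10 genes, 0 rises and 1 fall among regulators, and 3 rises and 2 falls among other targets. With the GC trend removed 4 regulators rose, also with the replicate block. Without a library in turn, regulators gave 0 to 1 rises and 1 to 3 falls (1 each without CDO1 replicates 1 and 3 and mock replicates 1 and 3), and other targets 2 to 4 falls (2 each without CDO1 replicates 1 and 3 and mock replicate 1).

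Same-numbered libraries had deviations from the group means with correlations of 0.0777, 0.299 and 0.0862. Libraries of different number had correlations of -0.238 to 0.189. The main fit did not pair the libraries. The replicate block gave 5918 calls against 5229, and NQO1 an adjusted p of 0.014. CDO1 replicates 2 and 3 correlated best with the mock library of the same number, and CDO1 replicate 1 with mock replicate 3. Depth limits CBR3, at 2 to 5 reads a library.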
